A study of Mus musculus with 7 samples.

Results

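The actin cytoskeleton and its contractile partners were followed as 37 named genes, which encode actins, tropomyosins, thin filament-binding proteins, myosins, filament crosslinkers, LIM domain proteins, filament turnover proteins and the coactivator myocardin. All 37 were found by symbol among the 35727 genes of the deposited table, and 34 had enough counts to be tested. Actin filaments carry the cell's shape, adhesion and motility, and with myosin they generate contractile force. Many of these genes are known targets of serum response factor (SRF), which binds the CArG box. Its cofactors of the MRTF family are held in the cytoplasm by monomeric actin and enter the nucleus when actin polymerises. Myocardin, a relative of the MRTFs, drives the smooth muscle set, and mesenchymal cells that become contractile, such as myofibroblasts, raise part of the same set.

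The libraries came from tumours of 2 mouse models of undifferentiated pleomorphic sarcoma, in which tumour cells show no recognisable line of differentiation. The Vgll3 model (p53KO Vgll3 OE, 3 libraries) and the Ccne1 model (p53KO Ccne1 OE, 4 libraries) both began as mesenchymal stem cells of female C57/Bl6 p53 knockout mice. A retroviral vector added Vgll3, a cofactor of TEAD transcription factors, or Ccne1, cyclin E1. Cells of each model were passed through wild-type female C57/Bl6 hosts as subcutaneous tumours, grown briefly in culture and transplanted again, and RFP-positive (red fluorescent) tumour cells were sorted for polyA RNA-seq. The host age is not given in the sources used here. The labels name 1 cell line per model, so the added gene and any other difference between the lines cannot be told apart. Whether each library had its own tumour or mouse is not stated, so p-values reflect the spread among these libraries, part of which may be technical.

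Library totals lay between 21725890 and 53610300 counts, and levels are given in CPM, counts scaled to library size. The upper limit for a gene with no count, 3 counts, was worth 0.0577 to 0.136 CPM depending on the library and covers counting error only. Vgll3 itself was 4.96-fold higher in the libraries labelled for it (252 ± 34.6 CPM in Vgll3-labelled and 50.7 ± 8.57 CPM in Ccne1-labelled libraries), while Ccne1 was not higher in those labelled for it (14.9 ± 2.16 CPM in Vgll3-labelled and 12.7 ± 5.61 CPM in Ccne1-labelled libraries, edgeR adjusted p = 0.609). The groups are therefore called Vgll3-labelled and Ccne1-labelled, and fold changes have the Vgll3-labelled level on top. Mesenchymal markers summed to 34373 to 41430.4 CPM in Vgll3-labelled and 22519.9 to 27718 CPM in Ccne1-labelled libraries, but the list went both ways: of its 7 genes, 3 were higher (Col1a1, Col1a2 and Pdgfrb) and 3 lower (Pdgfra, S100a4 and Vim, the last at 4375 ± 238 CPM in Vgll3-labelled and 13973 ± 1413 CPM in Ccne1-labelled libraries). Leukocyte markers summed to 5.66 to 14.0 CPM in Vgll3-labelled and 2.76 to 13.7 CPM in Ccne1-labelled libraries and epithelial markers to 0.151 to 1.00 CPM in Vgll3-labelled and 2.03 to 4.73 CPM in Ccne1-labelled libraries. Vgll3 replicate 3 stood apart from the others of its group (its correlation with them across genes was 0.959 and 0.963, and every other pair within a group had 0.980 to 0.988), and calls that end without it are given beside them. In bulk RNA, fewer cells of a type and less RNA per cell cannot be told apart.

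The genes of the actin cytoskeleton did not move together. Of 34 tested, 14 were higher and 10 lower in the Vgll3-labelled libraries at an edgeR adjusted p of 0.05, and 10 did not pass. Among all 13740 genes tested, 51.9% passed, 25.1% higher and 26.8% lower. The median log2 fold change was 0.14 for the 34 genes and 0.01 for all genes, and the median absolute log2 fold change was 0.43 in both. Past a 2-fold difference lay 4 genes on the higher side (Fhl1, Actg2, Acta2 and Flnc) and 2 on the lower side (Acta1 and Tagln), where 9.20% and 7.49% of all genes did so. CPM values of the groups did not overlap for 25 genes, 14 above and 11 below, where 55.7% of all genes did not overlap, 26.8% above and 29.0% below. Leaving out Vgll3 replicate 2 left 10 higher and 9 lower calls. The summed level of all 37 genes was 21043 ± 1138 CPM in Vgll3-labelled and 22061 ± 602 CPM in Ccne1-labelled libraries (SD, n = 3 and n = 4).

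**Figure D1:**
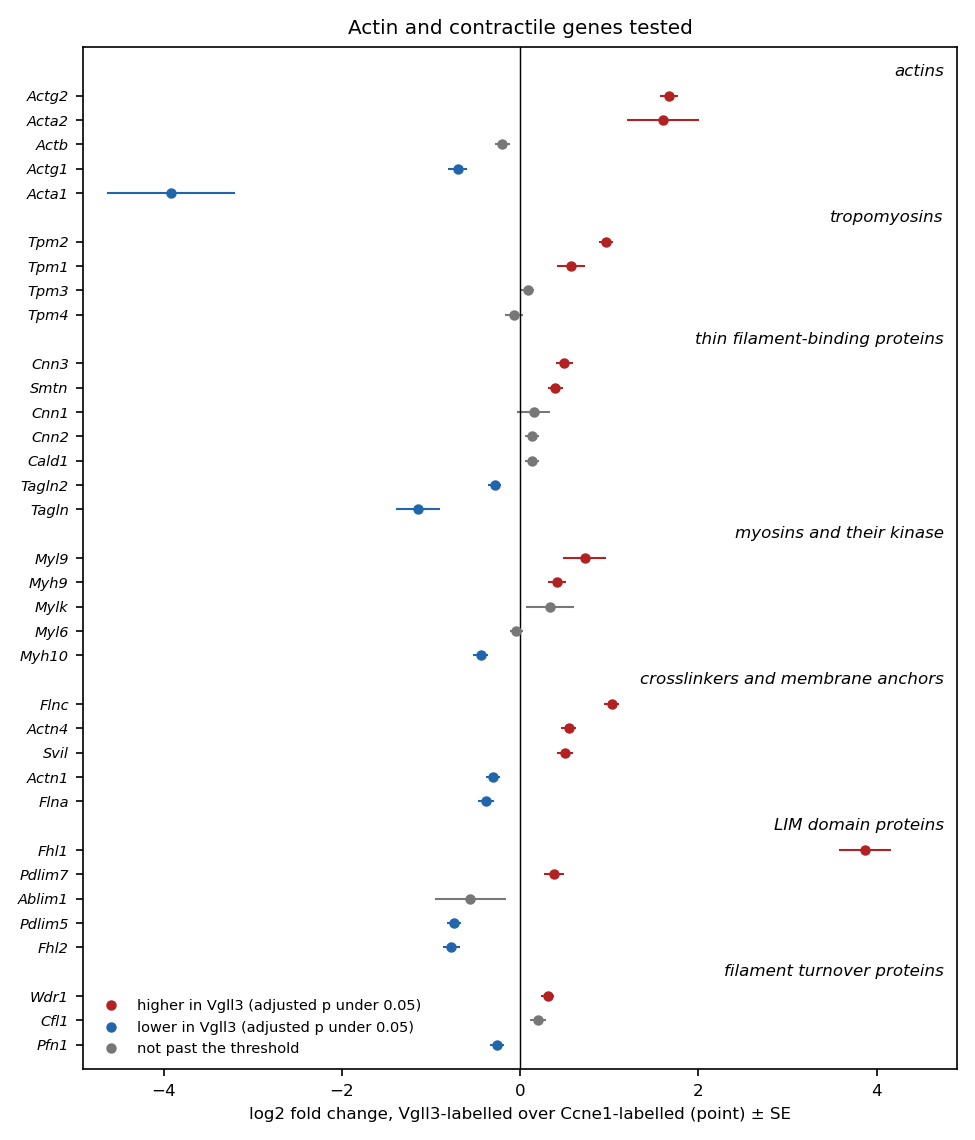
Log2 fold change of the 34 tested genes (point) with its standard error (bar), grouped by the protein's role and coloured by the edgeR call. Most groups hold genes on both sides of 0, and Fhl1 and Acta1 lie farthest out at 3.87 and −3.91.

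Promoter sequences show what some of these genes share. RefSeq promoters (GRCm38.p6, 250 bases before to 50 after a start site) were matched for 31 of the 37 genes, with 42 start sites. The 6 without an entry were Actb, Actg2, Tagln, Myh11, Myocd and Svil. A perfect CArG box on either strand was present in 8 of these 42 windows, from 7 genes, where 1.63% of all 32851 promoters of the same length held one. Many of the 37 genes are known SRF targets, so the choice of genes itself favours such boxes. The 7 genes were Fhl1 and Myl9, which were higher in the Vgll3-labelled libraries, Acta1, Actg1 and Fhl2, which were lower, and Cnn2 and Myl6, which did not pass the test. Boxes that differ from the perfect form by 1 base were not counted. The Acta2 window held 2 of these, ccctatatgg and ccttgtttgg, so a gene outside the 7 can still hold a near match. The MCAT element (CATTCC on either strand), which TEAD factors are known to bind, was present in 16 of the 42 windows, where 14.7% of all promoters held one. Of its 14 genes, 5 were higher and 5 lower, 3 did not pass and 1 was not tested, and Acta1 held both motifs. A match is a description of the letters and not a bound site. The windows with a perfect CArG box of the 5 genes that passed the test are printed because the same motif stands before genes called in opposite directions. Of the higher ones, Myl9 had overlapping groups and a call that ended without several single libraries, as given below. Capitals mark the CArG box and each line runs 5′ to 3′ on the gene's strand.

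Fhl1, chrX:56779433-56779732, plus strand: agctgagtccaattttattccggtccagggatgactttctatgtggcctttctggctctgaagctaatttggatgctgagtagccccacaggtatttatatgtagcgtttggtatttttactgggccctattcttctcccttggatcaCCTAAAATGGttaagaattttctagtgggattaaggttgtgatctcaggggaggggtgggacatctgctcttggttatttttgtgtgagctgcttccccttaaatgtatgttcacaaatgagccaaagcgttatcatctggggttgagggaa
Myl9, chr2:156775214-156775513, plus strand: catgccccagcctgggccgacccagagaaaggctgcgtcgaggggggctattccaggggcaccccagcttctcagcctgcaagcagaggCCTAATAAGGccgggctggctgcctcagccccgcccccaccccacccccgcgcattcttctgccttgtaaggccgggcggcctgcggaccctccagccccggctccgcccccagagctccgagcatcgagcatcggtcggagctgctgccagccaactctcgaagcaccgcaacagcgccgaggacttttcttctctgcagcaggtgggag
Acta1, chr8:123894726-123895025, minus strand: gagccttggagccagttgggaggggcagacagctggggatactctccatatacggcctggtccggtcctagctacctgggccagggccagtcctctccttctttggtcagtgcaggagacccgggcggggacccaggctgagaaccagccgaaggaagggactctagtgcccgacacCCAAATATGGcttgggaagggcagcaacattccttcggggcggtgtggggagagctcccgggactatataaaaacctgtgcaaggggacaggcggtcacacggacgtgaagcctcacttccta
Actg1, chr11:120348446-120348745, minus strand: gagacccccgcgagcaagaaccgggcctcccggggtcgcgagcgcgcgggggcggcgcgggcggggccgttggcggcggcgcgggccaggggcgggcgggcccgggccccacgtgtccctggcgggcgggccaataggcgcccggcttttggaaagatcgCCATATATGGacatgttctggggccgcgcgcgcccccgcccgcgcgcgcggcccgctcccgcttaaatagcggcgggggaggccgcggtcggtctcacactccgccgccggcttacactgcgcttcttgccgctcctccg
Fhl2, chr1:43163912-43164211, minus strand: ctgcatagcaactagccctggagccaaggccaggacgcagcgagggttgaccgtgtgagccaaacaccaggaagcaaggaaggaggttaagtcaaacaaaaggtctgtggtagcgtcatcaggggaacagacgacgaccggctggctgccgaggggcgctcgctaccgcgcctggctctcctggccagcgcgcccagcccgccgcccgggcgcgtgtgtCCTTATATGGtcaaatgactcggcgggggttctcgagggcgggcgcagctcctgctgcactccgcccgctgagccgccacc
Fhl2, chr1:43196712-43197011, minus strand: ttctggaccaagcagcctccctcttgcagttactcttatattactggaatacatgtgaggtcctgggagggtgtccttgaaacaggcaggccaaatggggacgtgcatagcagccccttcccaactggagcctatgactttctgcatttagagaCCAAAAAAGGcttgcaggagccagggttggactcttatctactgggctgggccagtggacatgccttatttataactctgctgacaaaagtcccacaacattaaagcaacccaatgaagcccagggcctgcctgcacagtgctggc

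The box began 102 bases before the Fhl1 start shown, 161 before that of Myl9, 73 before that of Acta1, 90 before that of Actg1, and 31 and 96 before the starts of Fhl2. Fhl1 has another start window in the table, chrX:56786277-56786576, with 0 CArG boxes.

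The actins changed in composition. The smooth muscle actins Acta2 and Actg2 were higher in the Vgll3-labelled libraries, the cytoplasmic gamma-actin Actg1 was lower, and the skeletal muscle actin Acta1 was lower and close to its detection limit. Acta2 (ENSMUSG00000035783, mm10 chromosome 19, 34241090 to 34255590), the alpha-smooth muscle actin of myofibroblasts, had 163, 283 and 233 CPM in Vgll3-labelled libraries, against 109, 40.7, 100.3 and 48.4 CPM in Ccne1-labelled libraries. Its groups did not overlap, but replicates of both were uneven, and the difference was 3.04-fold (log2 change 1.60, SE 0.41, edgeR adjusted p = 0.0164). The Acta2 call ended without Vgll3 replicate 2 (edgeR adjusted p = 0.0589), without Vgll3 replicate 3 (0.0527) and with no low-count filter (0.0534). Actg2 (ENSMUSG00000059430, mm10 chromosome 6, 83512905 to 83536265), the gamma-actin of visceral smooth muscle, had 177, 168 and 182 CPM in Vgll3-labelled libraries, against 52.5, 62.1, 46.6 and 59.5 CPM in Ccne1-labelled libraries. These values were tight within each group and 3.18-fold apart (log2 change 1.67, SE 0.10, edgeR adjusted p = 7.52e-06).

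Acta1 (ENSMUSG00000031972, mm10 chromosome 8, 123891769 to 123894751), the actin of skeletal muscle fibres, had 0.386, 0.227 and 0 CPM in Vgll3-labelled libraries, against 3.82, 4.02, 2.57 and 2.80 CPM in Ccne1-labelled libraries. That was 18, 6 and 0 counts in the Vgll3-labelled and 84, 209, 83 and 77 counts in the Ccne1-labelled libraries, with no overlap (log2 change −3.91, SE 0.72, edgeR adjusted p = 0.002). Without Vgll3 replicate 1, the library with the most Acta1 of its group, the log2 fold change was −4.88, and with limma-voom it was −4.68. Markers of differentiated striated muscle summed to 5.10 to 13.7 CPM in Vgll3-labelled and 5.14 to 6.13 CPM in Ccne1-labelled libraries, 11 of these 14 markers stayed under 1 CPM in every library and Myh2 was at 0. Markers of myogenic precursors summed to 60.5 to 218 CPM in Vgll3-labelled and 0.728 to 1.00 CPM in Ccne1-labelled libraries, and Cdh15 made up most of the Vgll3-labelled sum (141 ± 79.0 CPM in Vgll3-labelled and 0.112 ± 0.111 CPM in Ccne1-labelled libraries), with Myod1, Myog and Myf6 at 0. The part of either list in the Acta1 difference was not tested.

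The cytoplasmic actins are the bulk of a non-muscle cell's actin. Actg1 (ENSMUSG00000062825, mm10 chromosome 11, 120345690 to 120348542) had 3059, 2560.4 and 2521 CPM in Vgll3-labelled libraries, against 4749.9, 4587, 4346 and 3969.6 CPM in Ccne1-labelled libraries. Every Vgll3-labelled library lay below every Ccne1-labelled one, 1.63-fold lower (log2 change −0.70, SE 0.11, edgeR adjusted p = 0.000614). Actb (ENSMUSG00000029580, mm10 chromosome 5, 142903115 to 142906754), the beta-actin, had 3070.1, 2578 and 2625 CPM in Vgll3-labelled libraries, against 3126, 3093, 3289 and 3152 CPM in Ccne1-labelled libraries. Its groups did not overlap either, but the difference was small and did not pass (log2 change −0.20, SE 0.09, edgeR adjusted p = 0.0894), except without Vgll3 replicate 1 (edgeR adjusted p = 0.0259, log2 fold change −0.29). Per kilobase of annotated exon, Actg1 averaged 1021 in Vgll3-labelled and 1660.3 in Ccne1-labelled libraries (CPM per kilobase), and Actb 1029 in Vgll3-labelled and 1181 in Ccne1-labelled libraries. Gamma-actin thus stood above beta-actin in the Ccne1-labelled libraries and level with it in the Vgll3-labelled ones.

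As a share of the counts of these 5 actins, which does not depend on scaling between libraries, Actg1 made up 47.3, 45.8 and 45.3% in Vgll3-labelled libraries, against 59.1, 58.9, 55.8 and 54.9% in Ccne1-labelled libraries. Acta1, Acta2 and Actg2 together made up 5.26, 8.07 and 7.46% in Vgll3-labelled libraries, against 2.06, 1.37, 1.92 and 1.53% in Ccne1-labelled libraries. The muscle actins therefore took a share of 6.93% ± 1.48 in Vgll3-labelled and 1.72% ± 0.322 in Ccne1-labelled libraries (SD, n = 3 and n = 4), and the groups did not overlap. The 95% Wilson intervals of these shares were at most 0.508 percentage points wide, for counting error only. The summed level of the 5 actins was 5873 ± 517 CPM in Vgll3-labelled and 7711 ± 341 CPM in Ccne1-labelled libraries. Actins have close copies and many processed pseudogenes, so an estimated count can be split among copies, and the level of each actin is uncertain to that extent.

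**Figure D2:**
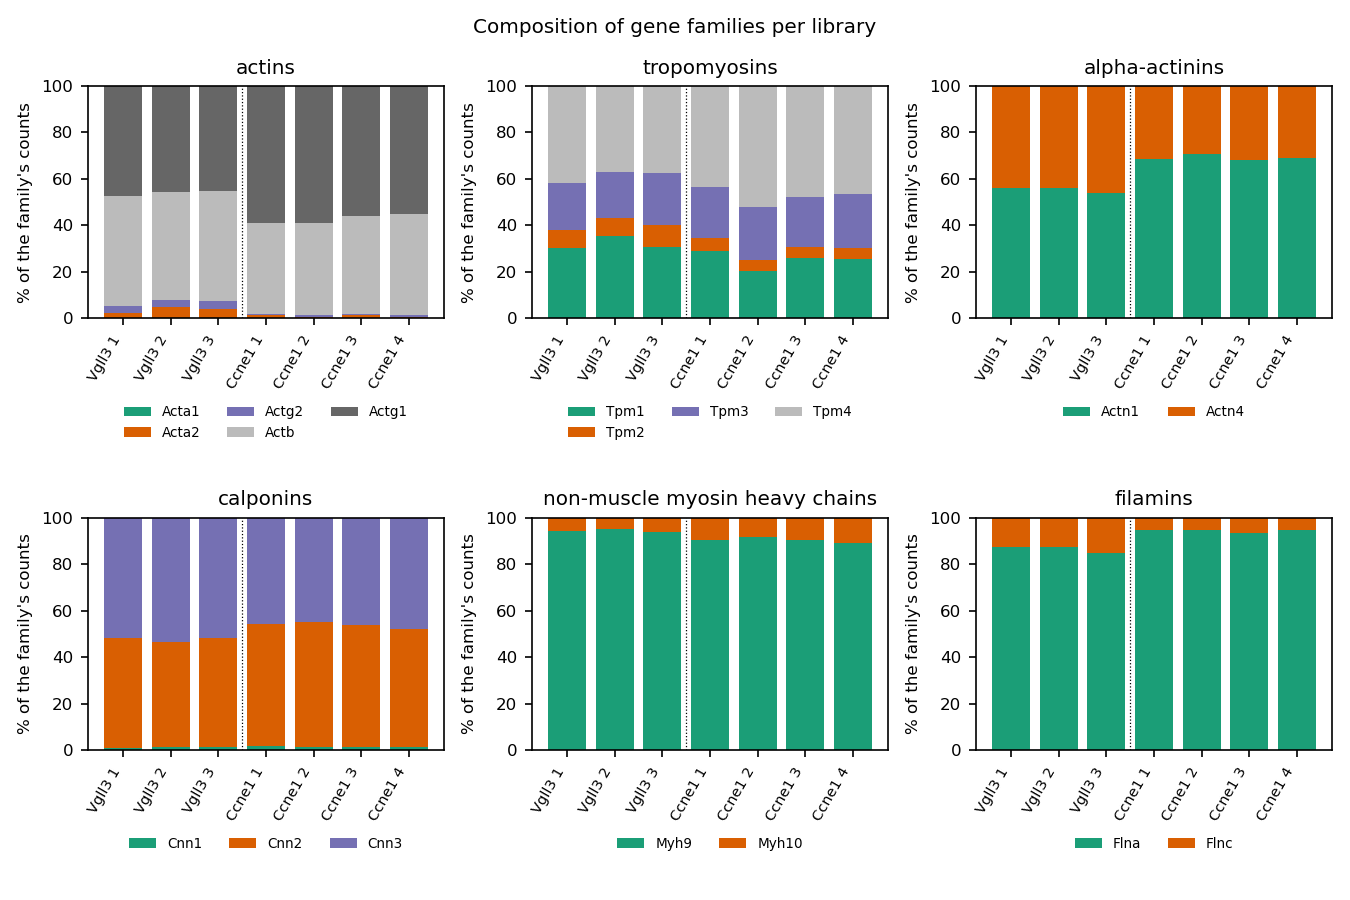
Share of each gene in the counts of its family (y axis, %) in each library (x axis), with Vgll3-labelled libraries left of the dotted line and Ccne1-labelled libraries right of it. Actg1 takes less, and Acta2 and Actg2 take more, of the actin counts in every Vgll3-labelled library, and Actn4, Flnc, Tpm2 and Myh9 take more of their families there.

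Tropomyosins, coiled-coil proteins that lie along the actin filament and gate myosin's access to it, were higher or did not pass the test. Tpm2 (ENSMUSG00000028464, mm10 chromosome 4, 43514711 to 43523765), the beta-tropomyosin of muscle and fibroblasts, had 280.4, 281 and 283 CPM in Vgll3-labelled libraries, against 162, 131, 143 and 142 CPM in Ccne1-labelled libraries. The Vgll3-labelled values were nearly equal to each other and 1.95-fold above the Ccne1-labelled mean (log2 change 0.96, SE 0.08, edgeR adjusted p = 2.98e-05). Tpm1, the alpha-tropomyosin, had 1073, 1280.3 and 924 CPM in Vgll3-labelled libraries, against 851, 549.5, 791 and 757 CPM in Ccne1-labelled libraries. It was 1.48-fold higher with no overlap (log2 change 0.57, SE 0.16, edgeR adjusted p = 0.0166), but the call ended without Vgll3 replicate 2 (edgeR adjusted p = 0.0705). Tpm3 was 691 ± 25.3 CPM in Vgll3-labelled and 652 ± 36.9 CPM in Ccne1-labelled libraries, and Tpm4, the most abundant of the 4 per kilobase of exon, was 1314 ± 178 CPM in Vgll3-labelled and 1377 ± 68.9 CPM in Ccne1-labelled libraries. Neither passed (edgeR adjusted p = 0.38 and 0.606), and the sign of the Tpm4 difference turned without Vgll3 replicate 3 and with upper quartile scaling. Tpm1 and Tpm2 together gave more of the tropomyosin counts in the Vgll3-labelled libraries: the Tpm2 share was 7.91, 7.81 and 9.44% in Vgll3-labelled libraries, against 5.51, 4.84, 4.72 and 4.76% in Ccne1-labelled libraries. The Tpm4 share was 38.8% ± 2.51 in Vgll3-labelled and 47.4% ± 3.61 in Ccne1-labelled libraries and the Tpm1 share 32.2% ± 2.90 in Vgll3-labelled and 25.2% ± 3.59 in Ccne1-labelled libraries, both without overlap.

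Proteins bound along the thin filament went both ways, and the classical smooth muscle markers were no exception. Tagln (ENSMUSG00000032085, mm10 chromosome 9, 45929619 to 45936058), the smooth muscle protein SM22-alpha, had 10.5, 8.92 and 18.2 CPM in Vgll3-labelled libraries, against 33.6, 28.1, 25.0 and 24.4 CPM in Ccne1-labelled libraries. It was 2.22-fold lower without overlap (log2 change −1.15, SE 0.25, edgeR adjusted p = 0.00608), in libraries where Acta2 and Actg2 were higher. Its exons overlap those of Pcsk7 on the opposite strand, and whether the counting used strand is not given in the sources used here. Pcsk7 was 25.7 ± 1.36 CPM in Vgll3-labelled and 25.9 ± 1.48 CPM in Ccne1-labelled libraries (edgeR adjusted p = 0.933). Tagln2, the widely expressed transgelin, was 1.22-fold lower (388 ± 26.6 CPM in Vgll3-labelled and 473 ± 6.09 CPM in Ccne1-labelled libraries, log2 change −0.28, SE 0.07, edgeR adjusted p = 0.00935).

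Of the calponins, which bind actin and damp myosin's activity, Cnn3 passed. Cnn3, the acidic calponin, had 447, 533 and 469 CPM in Vgll3-labelled libraries, against 361, 303, 362 and 346 CPM in Ccne1-labelled libraries, 1.41-fold higher without overlap (log2 change 0.49, SE 0.09, edgeR adjusted p = 0.00207). Cnn1, the calponin of differentiated smooth muscle, was low at 11.2 ± 2.31 CPM in Vgll3-labelled and 10.1 ± 1.85 CPM in Ccne1-labelled libraries (edgeR adjusted p = 0.51), and Cnn2 was 427 ± 20.1 CPM in Vgll3-labelled and 389 ± 27.4 CPM in Ccne1-labelled libraries (edgeR adjusted p = 0.18). Of the calponin counts, Cnn3 made up 52.4% ± 1.12 in Vgll3-labelled and 46.2% ± 1.20 in Ccne1-labelled libraries. Smtn (smoothelin) was 1.31-fold higher (186 ± 17.5 CPM in Vgll3-labelled and 142 ± 9.39 CPM in Ccne1-labelled libraries, log2 change 0.39, SE 0.09, edgeR adjusted p = 0.00435). Cald1 (caldesmon), which holds back myosin on the thin filament, was 551 ± 40.2 CPM in Vgll3-labelled and 501 ± 26.3 CPM in Ccne1-labelled libraries and did not pass (edgeR adjusted p = 0.188) except with upper quartile scaling (0.042). Lmod1 (leiomodin, a filament nucleator of smooth muscle) had 0 or 1 count in every library and was not tested.

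Among the motor proteins, the heavy chains of non-muscle myosin II diverged. Myh9 (ENSMUSG00000022443, mm10 chromosome 15, 77760587 to 77842175), the heavy chain of myosin IIA, had 3122, 3384 and 2725 CPM in Vgll3-labelled libraries, against 2444, 2398, 2219.9 and 2182 CPM in Ccne1-labelled libraries. It was 1.33-fold higher without overlap (log2 change 0.41, SE 0.10, edgeR adjusted p = 0.00635). Myh10 (ENSMUSG00000020900, mm10 chromosome 11, 68691559 to 68816632), the heavy chain of myosin IIB, had 192, 176 and 173 CPM in Vgll3-labelled libraries, against 254, 223, 236 and 268 CPM in Ccne1-labelled libraries, 1.36-fold lower without overlap (log2 change −0.45, SE 0.08, edgeR adjusted p = 0.00207). Of the counts of this pair, Myh10 made up 5.79, 4.93 and 5.97% in Vgll3-labelled libraries, against 9.41, 8.52, 9.61 and 11.0% in Ccne1-labelled libraries. Myh11, the smooth muscle heavy chain, was near the detection limit in both groups, with 4 to 9 counts in Vgll3-labelled and 1 to 18 counts in Ccne1-labelled libraries, and was not tested.

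Of the light chains, the regulatory chain Myl9 had 33.6, 44.1 and 63.8 CPM in Vgll3-labelled libraries, against 35.5, 23.2, 31.6 and 24.1 CPM in Ccne1-labelled libraries. These groups overlapped, since Vgll3 replicate 1 lay below Ccne1 replicate 1, and the call (log2 change 0.72, SE 0.24, edgeR adjusted p = 0.0374) ended without Vgll3 replicate 2 or 3, without Ccne1 replicate 2, 3 or 4 (edgeR adjusted p 0.0604 to 0.0988 over these) and with no low-count filter (0.0856). The essential chain Myl6 was 436 ± 24.9 CPM in Vgll3-labelled and 449 ± 24.6 CPM in Ccne1-labelled libraries (edgeR adjusted p = 0.664), with a sign that turned under upper quartile scaling. Mylk, the kinase that switches on the regulatory chain, was low at 5.49 ± 1.59 CPM in Vgll3-labelled and 4.32 ± 1.27 CPM in Ccne1-labelled libraries (edgeR adjusted p = 0.316).

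All 5 crosslinkers and membrane anchors passed, 3 higher and 2 lower, where 51.9% of all genes tested passed, and paralogs stood on opposite sides. Of the alpha-actinins, which bundle filaments at stress fibres and adhesions, Actn4 had 519.6, 579 and 569 CPM in Vgll3-labelled libraries, against 418, 347, 387 and 371 CPM in Ccne1-labelled libraries (log2 change 0.54, SE 0.08, edgeR adjusted p = 0.000729). Actn1 had 662, 743 and 671 CPM in Vgll3-labelled libraries, against 911, 831, 834 and 834 CPM in Ccne1-labelled libraries (log2 change −0.30, SE 0.08, edgeR adjusted p = 0.011). Neither gene's groups overlapped, Actn4 was 1.46-fold higher and Actn1 1.23-fold lower. Their summed level was 1248 ± 70.8 CPM in Vgll3-labelled and 1234 ± 66.3 CPM in Ccne1-labelled libraries, while the Actn4 share was 44.0, 43.8 and 45.9% in Vgll3-labelled libraries, against 31.5, 29.5, 31.7 and 30.8% in Ccne1-labelled libraries.

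Filamins crosslink actin into networks and tie it to membrane receptors. Flnc (ENSMUSG00000068699, mm10 chromosome 6, 29433256 to 29461883), the filamin of muscle and stressed mesenchymal cells, had 348, 360.2 and 385 CPM in Vgll3-labelled libraries, against 174, 161, 198 and 179.8 CPM in Ccne1-labelled libraries. It was 2.04-fold higher without overlap (log2 change 1.03, SE 0.08, edgeR adjusted p = 2.71e-05). Flna, the common filamin, had 2434, 2482 and 2162 CPM in Vgll3-labelled libraries, against 3179, 2967, 2889 and 3249 CPM in Ccne1-labelled libraries, 1.30-fold lower (log2 change −0.38, SE 0.09, edgeR adjusted p = 0.0062). Of the counts of this pair, Flnc made up 13.4% ± 1.46 in Vgll3-labelled and 5.51% ± 0.613 in Ccne1-labelled libraries. Svil (supervillin), which links actin and myosin to the membrane, was 1.42-fold higher (59.7 ± 0.603 CPM in Vgll3-labelled and 42.1 ± 4.67 CPM in Ccne1-labelled libraries, log2 change 0.50, SE 0.09, edgeR adjusted p = 0.00174).

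LIM domain proteins went both ways. Fhl1 (ENSMUSG00000023092, mm10 chromosome X, 56731787 to 56793346), a four-and-a-half-LIM protein abundant in skeletal muscle, had 39.1, 42.7 and 31.7 CPM in Vgll3-labelled libraries, against 4.05, 2.77, 2.17 and 1.45 CPM in Ccne1-labelled libraries. The lowest Vgll3-labelled library was far above the highest Ccne1-labelled one, and the difference of 14.6-fold was the largest rise among the 34 genes tested (log2 change 3.87, SE 0.29, edgeR adjusted p = 4.28e-05). Its paralog Fhl2 (ENSMUSG00000008136, mm10 chromosome 1, 43123074 to 43196984), a cofactor known to bind SRF, had 65.4, 58.8 and 74.0 CPM in Vgll3-labelled libraries, against 110.2, 123, 115 and 102 CPM in Ccne1-labelled libraries. It was 1.71-fold lower without overlap (log2 change −0.77, SE 0.10, edgeR adjusted p = 0.000234). Per kilobase of exon, Fhl1 averaged 10.2 in Vgll3-labelled and 0.703 in Ccne1-labelled libraries and Fhl2 34.8 in Vgll3-labelled and 59.5 in Ccne1-labelled libraries (CPM per kilobase), so Fhl2 remained the more abundant of the pair in both groups.

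The PDZ-LIM proteins anchor kinases and alpha-actinin at stress fibres and Z-discs. Pdlim5 had 171, 154 and 164 CPM in Vgll3-labelled libraries, against 249, 297, 273 and 271 CPM in Ccne1-labelled libraries, 1.67-fold lower without overlap (log2 change −0.74, SE 0.08, edgeR adjusted p = 0.000105). Pdlim7 was 1.30-fold higher (135 ± 9.14 CPM in Vgll3-labelled and 104 ± 15.0 CPM in Ccne1-labelled libraries, log2 change 0.38, SE 0.11, edgeR adjusted p = 0.0194), a call that ended without Ccne1 replicate 4 and without Vgll3 replicate 2 or 3 (edgeR adjusted p 0.05002 to 0.0562). Ablim1, an actin-binding LIM protein, was low at 1.09 ± 0.0768 CPM in Vgll3-labelled and 1.61 ± 0.741 CPM in Ccne1-labelled libraries (edgeR adjusted p = 0.264).

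**Figure D3:**
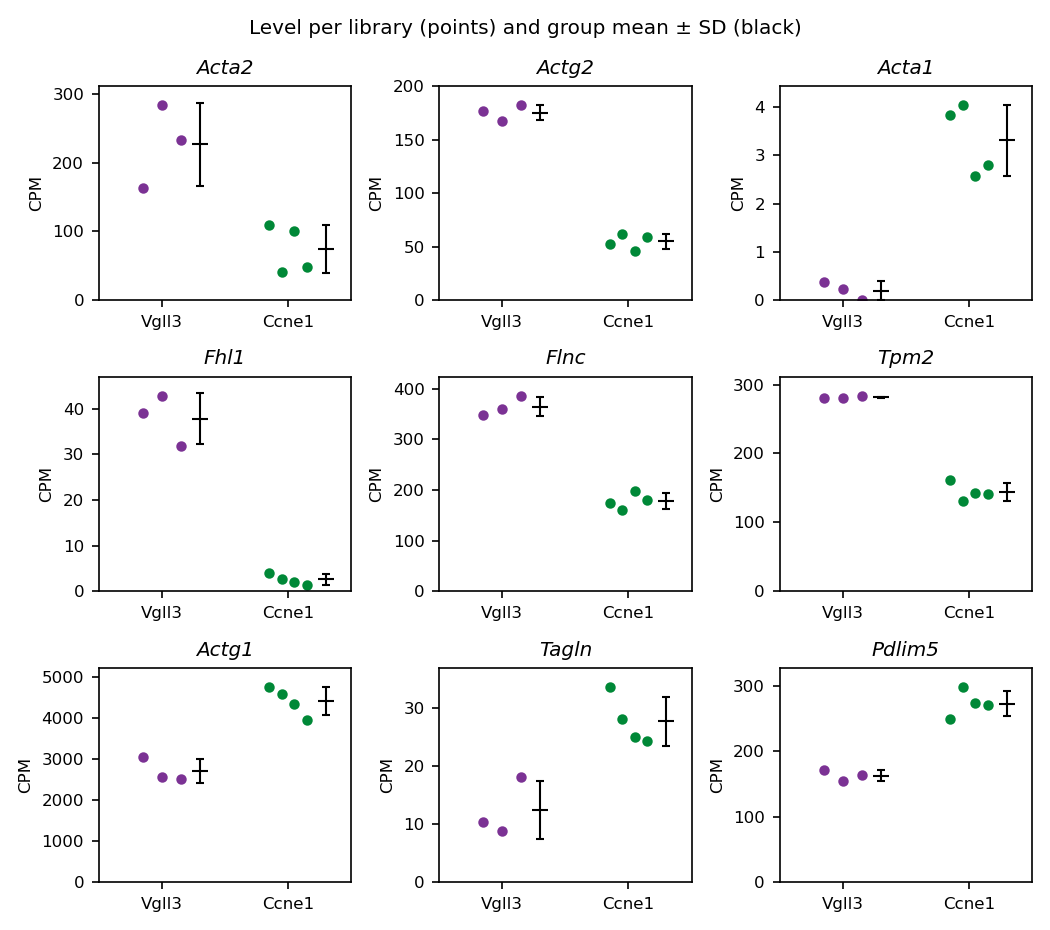
Level of 9 genes in each library (points, CPM on the y axis, starting at 0) with the group mean and SD (black), Vgll3-labelled left and Ccne1-labelled right. In each panel the Vgll3-labelled points lie wholly above the Ccne1-labelled ones (Acta2, Actg2, Fhl1, Flnc, Tpm2) or wholly below them (Acta1, Actg1, Tagln, Pdlim5).

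The turnover proteins differed by small amounts. Wdr1, which speeds filament disassembly together with cofilin, was 1.24-fold higher (254 ± 6.92 CPM in Vgll3-labelled and 205 ± 12.8 CPM in Ccne1-labelled libraries, log2 change 0.31, SE 0.07, edgeR adjusted p = 0.00634). Cfl1, the filament-severing cofilin, was 801 ± 69.4 CPM in Vgll3-labelled and 697 ± 38.2 CPM in Ccne1-labelled libraries, without overlap but not past the threshold (log2 change 0.20, SE 0.09, edgeR adjusted p = 0.0779). It passed with upper quartile scaling (edgeR adjusted p = 0.0224), with total counts scaling (0.0444), with the DESeq2 test (adjusted p 0.023) and without Vgll3 replicate 3 (0.0214). Pfn1 (profilin), which loads monomeric actin onto growing ends, was 1.20-fold lower (497 ± 23.0 CPM in Vgll3-labelled and 594 ± 31.9 CPM in Ccne1-labelled libraries, log2 change −0.26, SE 0.08, edgeR adjusted p = 0.0195). Removing any one of Ccne1 replicates 3 and 4 and Vgll3 replicates 1 and 2 ended the Pfn1 call (edgeR adjusted p 0.0521 to 0.0602), as did upper quartile scaling (0.0967).

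Myocd, the gene of myocardin, had 1, 0 and 0 counts in Vgll3-labelled and 3, 1, 0 and 0 counts in Ccne1-labelled libraries, at or under the limit that a count of 0 allows. Myocd was thus at the edge of detection at this depth in both models, with at most 3 counts in any library. Together with Lmod1 and Myh11 it makes up the 3 untested genes, each of which is known from differentiated smooth muscle.

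The libraries varied in a few of these genes more than in most. The median coefficient of variation over the 34 genes was 7.31% in Vgll3-labelled and 7.81% in Ccne1-labelled libraries, and its highest value was 94.96% in Vgll3-labelled libraries (Acta1) and 46.97% in Ccne1-labelled ones (Acta2). Ccne1 replicate 1 held the highest value of its group in 19 of the 34 genes, and Ccne1 replicate 2 the lowest in 17. Markers of host vessels are given beside Acta2 because pericytes and vascular smooth muscle also express it. Endothelial markers summed to 28.9, 54.1 and 217 CPM in Vgll3-labelled libraries, against 115, 41.5, 73.4 and 45.8 CPM in Ccne1-labelled libraries, and none of the 7 passed the test (edgeR adjusted p 0.186 to 0.828). Most of this sum was Pecam1, which had 19.6, 35.3 and 184 CPM in Vgll3-labelled libraries, against 71.3, 22.4, 49.6 and 23.4 CPM in Ccne1-labelled libraries. Cdh5, the next most abundant, had 5.57, 9.60 and 17.2 CPM in Vgll3-labelled libraries, against 26.2, 11.3, 13.8 and 13.9 CPM in Ccne1-labelled libraries. Within the Ccne1 model, replicates 1 and 3 had the most Pecam1 and the most Acta2, while Cdh5 was nearly equal in replicates 3 and 4. Within the Vgll3 model Pecam1 and Cdh5 were highest in replicate 3, and Acta2 in replicate 2. The pericyte list summed to 146, 172 and 159.6 CPM in Vgll3-labelled libraries, against 527, 552, 459.6 and 546 CPM in Ccne1-labelled libraries, most of it Cspg4 (139.6 ± 10.2 CPM in Vgll3-labelled and 514 ± 42.4 CPM in Ccne1-labelled libraries), and 3 of its 8 markers (Higd1b, Myh11 and Ndufa4l2) stayed under 1 CPM in every library. Rgs5, a pericyte gene, was 5.95 ± 1.89 CPM in Vgll3-labelled and 0.543 ± 0.328 CPM in Ccne1-labelled libraries (edgeR adjusted p = 0.000431), and Notch3 was 11.7 ± 5.24 CPM in Vgll3-labelled and 4.00 ± 1.67 CPM in Ccne1-labelled libraries (edgeR adjusted p = 0.0168). The Notch3 groups overlapped, since Vgll3 replicate 3 (6.12 CPM) lay below Ccne1 replicate 2 (6.16 CPM). Kcnj8, Abcc9 and Ndufa4l2 of the same list pointed lower without passing (edgeR adjusted p = 0.0628, 0.267 and 0.472). The part of these markers in the Acta2 difference was not tested.

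**Figure D4:**
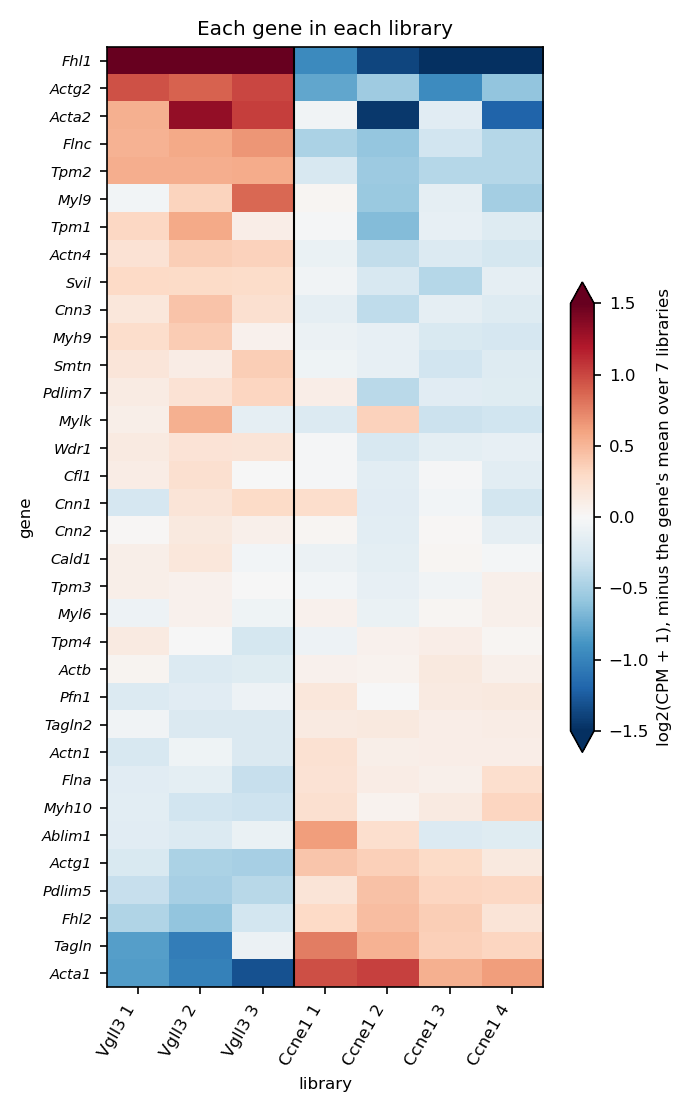
Each tested gene (rows, ordered by fold change) in each library (columns, Vgll3-labelled left of the line and Ccne1-labelled right), as log2(CPM + 1) minus the mean of that gene over the 7 libraries; colours saturate at the ends of the scale. The first 5 rows (Fhl1 to Tpm2) are red in every Vgll3-labelled and not in any Ccne1-labelled library, the last 5 (Actg1 to Acta1) are the other way round, and Acta2 and Myl9 show uneven replicates.

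Upstream of these genes, the levels of SRF and its cofactors differed by modest amounts. All 7 genes of the list passed, 3 higher and 4 lower, where 51.9% of all genes tested passed. Leaving out 1 library left 2 to 3 higher and 4 lower. Srf was 1.16-fold higher (112 ± 4.70 CPM in Vgll3-labelled and 96.5 ± 5.41 CPM in Ccne1-labelled libraries, edgeR adjusted p = 0.0269) and Mrtfa, the gene of the actin-sensing coactivator MRTF-A, 1.27-fold higher (69.1 ± 3.87 CPM in Vgll3-labelled and 54.5 ± 1.80 CPM in Ccne1-labelled libraries, edgeR adjusted p = 0.00254). Its paralog Mrtfb was 1.37-fold lower (28.5 ± 3.81 CPM in Vgll3-labelled and 39.1 ± 3.06 CPM in Ccne1-labelled libraries, edgeR adjusted p = 0.00671), and Scai, a suppressor of MRTF-A, 1.58-fold lower (18.5 ± 1.43 CPM in Vgll3-labelled and 29.3 ± 3.50 CPM in Ccne1-labelled libraries, edgeR adjusted p = 0.00109). Of the ternary complex factors, which compete with MRTFs for SRF, Elk4 was 1.22-fold higher (edgeR adjusted p = 0.0102), Elk3 1.42-fold lower (edgeR adjusted p = 0.000317) and Elk1 1.32-fold lower (edgeR adjusted p = 0.00186).

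Other SRF and MRTF targets also split, with 2 of 10 higher and 4 lower (60% called, where 51.9% of all genes tested were). Zyx (zyxin), a sensor of tension at adhesions and stress fibres, had 883, 834 and 694 CPM in Vgll3-labelled libraries, against 329.8, 311, 350.4 and 323 CPM in Ccne1-labelled libraries (log2 change 1.29, SE 0.10, edgeR adjusted p = 1.63e-05), and Nexn, an actin-binding protein of muscle, was 1.80-fold higher (edgeR adjusted p = 0.000303). Lmcd1, a LIM protein, had 6.56, 1.40 and 0.971 CPM in Vgll3-labelled libraries, against 38.3, 48.5, 42.9 and 39.3 CPM in Ccne1-labelled libraries (log2 change −3.74, SE 0.65, edgeR adjusted p = 0.00375), and Csrp2, a LIM protein of smooth muscle, was 1.83-fold lower (edgeR adjusted p = 0.024). Of 10 other smooth muscle genes, 8 were tested, 4 were higher and 1 lower (62.5% called, where 51.9% of all genes tested were). Ppp1r12b, a myosin phosphatase subunit, was 1.63-fold higher (edgeR adjusted p = 0.0012) and Des (desmin) was 1.58 ± 0.298 CPM in Vgll3-labelled and 0.776 ± 0.196 CPM in Ccne1-labelled libraries (edgeR adjusted p = 0.0335). Synpo2 (1.47-fold, edgeR adjusted p = 0.0234) and Hspb6 (1.29-fold, edgeR adjusted p = 0.0381) also passed, both higher. The Hspb6 groups overlapped, since Vgll3 replicate 2 (33.3 CPM) lay below Ccne1 replicate 3 (34.9 CPM). Without any 1 library other than Vgll3 replicate 2, only 1 or 2 of these smooth muscle genes were called higher, and without Vgll3 replicate 2 only 2 of the other SRF and MRTF targets were called lower.

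Of 26 other turnover and nucleation genes tested, 4 were higher and 8 lower (46.2% called, where 51.9% of all genes tested were). There were 8 higher when Vgll3 replicate 3 was left out and 2 when any other library was. Tmsb4x (thymosin beta-4), which sequesters monomeric actin, had 150.2, 138 and 156 CPM in Vgll3-labelled libraries, against 313, 334, 346 and 340.1 CPM in Ccne1-labelled libraries, 2.25-fold lower (log2 change −1.17, SE 0.08, edgeR adjusted p = 9.98e-06). Dstn (destrin), a relative of cofilin that is also on the list of SRF targets, was 1.62-fold lower (edgeR adjusted p = 0.000151). Twf2 was 1.41-fold (edgeR adjusted p = 0.00977) and Arpc4, an Arp2/3 subunit, 1.27-fold higher (edgeR adjusted p = 0.00874).

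Paralogs of the actin and contractile genes had 2 of 10 tested higher and 5 lower (70% called, where 51.9% of all genes tested were). Pdlim2 (1.84-fold, edgeR adjusted p = 0.000115) and Fhl3 (1.51-fold, edgeR adjusted p = 0.00139) were higher. Myl6b (2.39-fold, edgeR adjusted p = 0.00076) and Smtnl2 (4.24-fold, edgeR adjusted p = 0.0358) were lower, as were Myl12a, the non-muscle paralog of Myl9 (1.52-fold, edgeR adjusted p = 0.000132), and Pdlim1. Smtnl2 was close to its detection limit, with 7, 1 and 12 counts in Vgll3-labelled and 9, 75, 25 and 19 counts in Ccne1-labelled libraries. Its fold change is therefore uncertain.

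**Figure D5:**
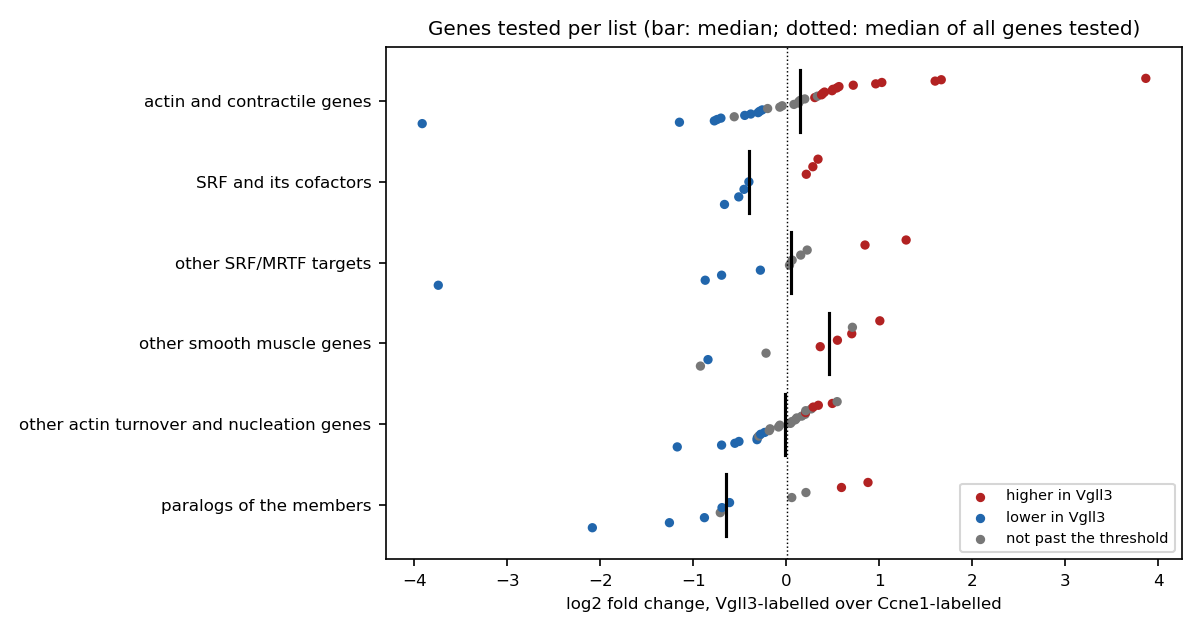
Log2 fold change of each tested gene (point, coloured by the edgeR call) in the actin and contractile set and in 5 lists of related genes, with the median of each list as a bar and the median of all genes dotted. Calls fall on both sides of 0 in each of these lists, with Fhl1 at 3.87, Acta1 at −3.91 and Lmcd1 at −3.74.

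Chromosomes also differed in their median between the models, and some of these genes lie on chromosomes that stood off. Relative to the median of all genes, the median log2 fold change was 0.43 for chromosome 4 (Tpm2), 0.39 for chromosome 6 (Actg2, Flnc and Cald1), 0.28 for chromosome 18 (Svil) and −0.30 for chromosome 11 (Actg1, Myh10, Pfn1, Smtn and Myocd). The differences of Tpm2 (0.96), Actg2 (1.67), Flnc (1.03), Svil (0.50), Actg1 (−0.70) and Myh10 (−0.45) lay in the direction of their chromosome's median. Each was at least as far from 0 as that median. The differences of Cald1 (0.13) and of Arpc4 (0.35), also on chromosome 6, were smaller than the median of chromosome 6. Smtn (0.39) went against the median of chromosome 11, and the Pfn1 difference (−0.26) was smaller than it. The part of the chromosome in these differences was not tested.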

How the data were processed

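PolyA RNA-seq libraries of RFP-positive cells sorted from tumours, 3 Vgll3-labelled and 4 Ccne1-labelled, were grouped and numbered by their titles. The authors deposited estimated counts per Ensembl gene, unnormalised. The submitters' processing notes name Salmon and mm10. For version, annotation and strandedness: not given in the sources used here. Every value was whole already (0 needed rounding). Symbols (35422 of 35727 genes), 1-based gene bounds and merged exon lengths came from GENCODE M21 (GRCm38, equal to mm10). Gene-level counts do not separate isoforms.

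The main test was the quasi-likelihood test of edgeR 4.0.16 in R 4.3.3, in its robust form, with the tumour model as the single covariate, after filterByExpr and TMM scaling, and with Benjamini-Hochberg adjustment over 13740 genes. An SE is the size of the log2 change over the root of the F statistic. No replicates were duplicates: chi-square over its degrees of freedom was 12.4 to 96.3 between libraries of one group. The test was also run on simulated counts with seeded changes. Alternatives were DESeq2 1.42.0, limma-voom (3.58.1), other scalings, no low-count filter, a replicate block and leaving out each library. The 37 genes and the related lists were chosen with earlier results of these data known. Named genes outside the 37 were up to 2 called genes per direction with the largest change in each list; Srf, Mrtfb, Elk1, Synpo2, Hspb6, Myl12a, Pdlim1, Pcsk7 and the single marker genes were added after their values were seen. Exons of Actn4 and Cfl1 overlap those of Capn12 (11 counts over all libraries) and Snx32 (293 counts). Myl12b, with 2 IDs of that symbol, was left out of its list. Some results of the related lists are not reported here.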

Additional observations from a re-analysis of the deposited data

Results flagged for a closer look

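In a group of 4 libraries, 1 value was far from the others for 2 genes. Mylk was 6.22 CPM in Ccne1 replicate 2, against 3.63, 3.53 and 3.91 CPM in replicates 4, 3 and 1 of that group. Actn1 was 911 CPM in Ccne1 replicate 1, against 831 to 834 CPM in the other replicates of that group. Chance flags about 1 in 20 groups, and 34 groups were looked at.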

How the results depend on the processing

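Of the 24 calls, 13 kept their direction and side of the threshold under all 14 alternatives: Acta1, Actg1, Actg2, Actn4, Cnn3, Fhl1, Fhl2, Flnc, Myh10, Pdlim5, Svil, Tagln and Tpm2. Calls that ended under a setting other than the replicate block are given beside their genes, and no called gene changed sign. The signs that turned belong to genes that did not pass: Tpm4 (0.0154 with upper quartile scaling and 0.0406 without Vgll3 replicate 3) and Myl6 (0.0412 with upper quartile scaling). The cause was not tested.

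Whether the replicate numbers pair the libraries is not stated. Deviations of same-numbered libraries from their group means were only weakly correlated (−0.15, −0.17 and −0.10), which does not settle whether they were processed together. With the replicate block, 7 genes of the set were higher and 6 lower (13 calls), 2287 genes of the whole table were higher, and calls were 1 higher among SRF cofactors, 2 lower among other SRF/MRTF targets, 1 higher and 2 in all among other smooth muscle genes, and 1 higher, 5 lower and 6 in all among other turnover genes. With upper quartile scaling 9 other turnover genes were higher, and with no low-count filter 2 were.

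Leaving out 1 library gave 10 to 14 higher and 9 to 10 lower genes of the set (19 to 24 calls), 2 to 4 lower SRF/MRTF targets, 1 to 3 higher and 2 to 4 called other smooth muscle genes, and 2 to 8 higher and 9 to 17 called other turnover genes. Depth limits Myocd, Lmod1, Myh11 and Acta1, and Smtnl2 among the paralogs.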
